A study of Arabidopsis thaliana with 30 samples.

Results

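FLC (AT5G10140), FLM (AT1G77080), MAF2 (AT5G65050), MAF3 (AT5G65060), MAF4 (AT5G65070), MAF5 (AT5G65080) and SVP (AT2G22540) are MADS-box repressors of flowering of Arabidopsis thaliana. These 7 genes were chosen by their TAIR10 identifiers, out of 27444 nuclear protein-coding genes, and each was described by the ChIP-seq peaks that overlapped its gene window, the annotated gene plus 1 kb upstream of its start. All 7 were found in the annotation, and each had a peak in at least 1 list. The peak lists came from 14-day-old seedlings grown at 22 degrees in long days, and 20 immunoprecipitated samples formed 10 groups of 2 replicates. GFP-tagged proteins were profiled in 6 groups. BRM-GFP carries BRM, the ATPase of a SWI/SNF chromatin remodelling complex, and BRD1-GFP, BRD2-GFP and BRD13-GFP carry bromodomain proteins, which bind acetylated lysines. BRM-GFP in brd1/2/13 is BRM-GFP in plants mutated in BRD1, BRD2 and BRD13, and BRD2-dBromo-GFP carries, going by the label alone, a BRD2 whose bromodomain was changed. Histone H4 acetylated at lysine 5 (H4K5ac) or lysine 8 (H4K8ac) was profiled in WT and in brd1/2/13. The labels give no genotype for the plants carrying a tagged protein, other than brd1/2/13. The series' design text names brm-1, brd1 and brd2 plants for BRM, BRD1 and BRD2, and neither the promoters of the transgenes nor the number of lines is stated there. Whole seedlings were used, so fewer cells with a bound gene and less binding per cell cannot be told apart.

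FLOWERING LOCUS C (FLC) holds back flowering by repressing FT and SOC1, the genes that promote it. Its level is set by activators such as FRIGIDA, and long cold silences it through Polycomb proteins, which is known as vernalization. SVP, a more distant MADS-box protein, acts in a complex with FLC or with FLM, and FLM and MAF2 are known for holding back flowering at cool ambient temperatures. MAF3, MAF4 and MAF5 are close relatives of FLC with partly shared roles.

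The lists held 6131 to 20742 peaks. The fold enrichment given for a peak is the ratio of the reads at its summit to the local background. Both carry an added 1, and the fold is as the authors' peak caller MACS2 reported it. The background coverage, the number of reads that a list has at places without enrichment, was 10.01 and 18.6 reads in BRM-GFP, 37.0 and 36.4 reads in BRM-GFP in brd1/2/13, and 24.1 to 38.1 reads in the other lists. BRM-GFP in brd1/2/13 thus had the deepest background of the BRM lists, but its lists stopped at a q of 0.01 where the other 18 went up to 0.05. The weakest peaks that a list held at its background coverage (the lowest 1% of fold) were at 1.64 and 1.66 in BRM-GFP in brd1/2/13 and at 1.54 to 2.0 in the other lists. A gene without a peak can therefore carry a signal below these folds. The titles number the replicates bio1 and bio2, which marks them as biological replicates, and do not state whether they came from separate cultures. A limma p-value here weighs the difference between groups against the spread between the lists of a group, whatever that spread holds. The spread of a gene is moderated by that of all genes tested.

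The coding part of the first exon is shown for each gene, since 75 of the 113 start summits lay there, a start summit being a peak summit from 500 bases before to 1000 bases after the annotated start. This stretch encodes the beginning of the DNA-binding MADS domain. Sequences were read from the RefSeq TAIR10.1 genome, 5′ to 3′ along the gene, and capitals mark 21 bases centred on the median of both H4K5ac summits in WT.
FLC coding part of exon 1, chr5:3179155-3179339, minus strand: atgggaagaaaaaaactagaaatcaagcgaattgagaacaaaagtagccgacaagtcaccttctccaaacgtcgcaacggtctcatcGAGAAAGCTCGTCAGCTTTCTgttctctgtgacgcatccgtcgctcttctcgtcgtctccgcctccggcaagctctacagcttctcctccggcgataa
FLM coding part of exon 1, chr1:28955679-28955863, plus strand: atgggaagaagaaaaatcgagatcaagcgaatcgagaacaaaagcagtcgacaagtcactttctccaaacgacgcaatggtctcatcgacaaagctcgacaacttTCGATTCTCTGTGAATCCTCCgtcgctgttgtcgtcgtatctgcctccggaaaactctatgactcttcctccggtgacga
MAF2 coding part of exon 1, chr5:25982415-25982599, plus strand: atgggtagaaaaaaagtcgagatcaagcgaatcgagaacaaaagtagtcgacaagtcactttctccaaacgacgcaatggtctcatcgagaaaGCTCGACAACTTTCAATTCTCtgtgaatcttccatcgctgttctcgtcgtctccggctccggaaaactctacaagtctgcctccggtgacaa
MAF3 coding part of exon 1, chr5:25987527-25987711, plus strand: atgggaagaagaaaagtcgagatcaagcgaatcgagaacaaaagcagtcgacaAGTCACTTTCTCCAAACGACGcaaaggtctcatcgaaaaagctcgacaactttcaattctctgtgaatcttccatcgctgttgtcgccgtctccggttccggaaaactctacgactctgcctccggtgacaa
MAF4 coding part of exon 1, chr5:25992310-25992494, plus strand: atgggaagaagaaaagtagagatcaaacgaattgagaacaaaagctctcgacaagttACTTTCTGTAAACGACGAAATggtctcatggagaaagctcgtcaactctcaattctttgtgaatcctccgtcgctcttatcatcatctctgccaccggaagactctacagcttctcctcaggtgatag
MAF5 coding part of exon 1, chr5:25997650-25997855, plus strand: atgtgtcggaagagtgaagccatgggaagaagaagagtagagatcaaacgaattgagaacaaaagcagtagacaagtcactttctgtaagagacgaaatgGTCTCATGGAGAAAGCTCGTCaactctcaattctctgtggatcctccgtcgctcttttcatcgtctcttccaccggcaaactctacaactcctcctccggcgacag
SVP coding part of exon 1, chr2:9580417-9580598, plus strand: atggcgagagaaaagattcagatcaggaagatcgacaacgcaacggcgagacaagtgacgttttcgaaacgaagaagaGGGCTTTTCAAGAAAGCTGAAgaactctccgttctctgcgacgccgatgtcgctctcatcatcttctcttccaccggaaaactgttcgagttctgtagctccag
The capitals fell inside the coding exon in all 7 genes, although the genes differ in the length of the leader before it, from 109 bases in FLC to 770 bases in SVP. FLC shared 84.9% of its bases in this exon with MAF2, 82.7% with FLM, 82.2% with MAF3, 81.1% with MAF4, 72.8% with MAF5, whose exon is longer, and 61.6% with SVP. MAF2 and MAF3 were the closest pair, with 175 identical bases of 185, followed by FLM and MAF3 with 171 of 185. Stretches of 50 bases that occur once in the genome made up 94.9% of those touching this exon in FLM and in MAF3, and 100% in the other 5 genes. Reads of FLM and MAF3 could be assigned to either gene in the remaining stretches, and the labels do not state the read length.

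MAF2, MAF3, MAF4 and MAF5 lie in a row on the plus strand of chromosome 5 (25982254 to 26002619, TAIR10), with gaps of 873, 780 and 1301 bases. FLC lies on the minus strand of chromosome 5 (3173382 to 3179448), FLM on chromosome 1 (28955483 to 28960234, plus strand) and SVP on chromosome 2 (9579647 to 9583901, plus strand). The window of a gene reached a peak of another gene in several places. A peak between MAF4 and MAF5 was counted for both, peaks between MAF3 and MAF4 reached both windows, and the peak of AT1G77060 reached the window of FLM in BRD2-GFP replicate 1 and BRD2-dBromo-GFP replicate 2. AT5G01675, a long non-coding RNA gene on the other strand, spans all 6067 bases of FLC, and ChIP-seq reads carry no strand that would separate them.

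**Figure D1:**
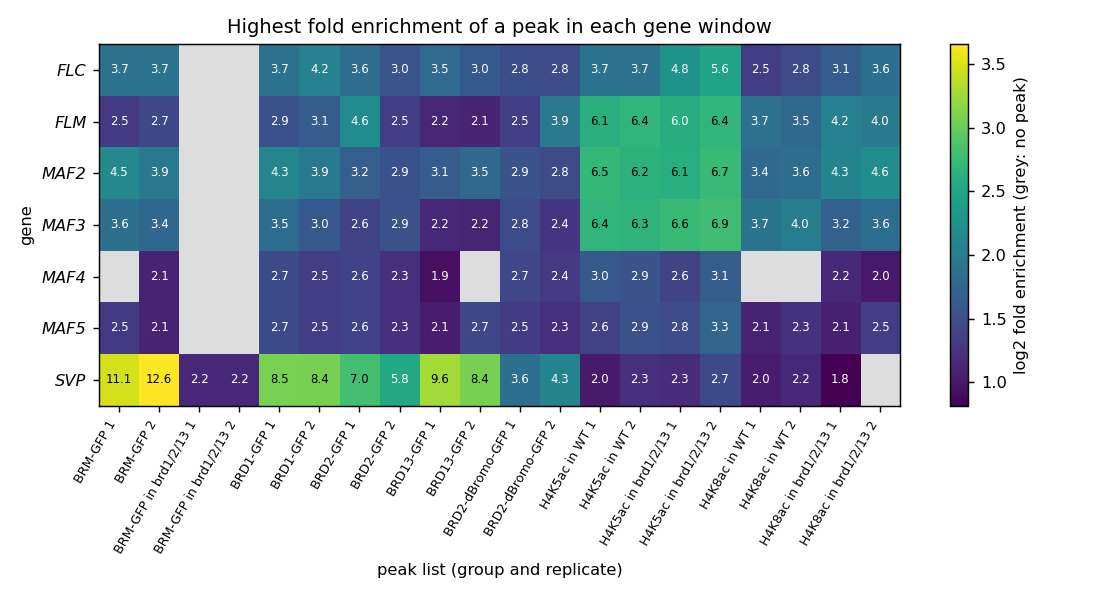
Highest fold enrichment of a peak in the window of each gene (vertical axis) in each of the 20 peak lists (horizontal axis, group and replicate). Colour gives log2 fold enrichment, the printed number the fold itself, and grey a list without a peak. SVP was highest in the lists of BRM-GFP, BRD1-GFP, BRD2-GFP and BRD13-GFP, at 5.76 to 12.6, and low in acetylation, at 1.76 to 2.71, while FLM, MAF2 and MAF3 had H4K5ac folds of 6.0 to 6.89.

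BRM and the BRD proteins were found at nearly all of these repressors. BRM-GFP had a peak in both replicates at FLC, FLM, MAF2, MAF3, MAF5 and SVP, which is 6 of 7 genes, against 54.6% of all protein-coding genes. BRD1-GFP and BRD2-GFP had one at all 7 (65.3% and 62.4% of all genes), and BRD13-GFP at the same 6 as BRM-GFP (55.2%). MAF4 was the gene left out in each case. In BRM-GFP replicate 2 a peak reached the MAF4 window by 5 bases only, and in BRD13-GFP replicate 1 a peak of fold 1.91 lay upstream of it.

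SVP stood highest. BRM-GFP reached 11.1 and 12.6 at SVP in replicates 1 and 2, which placed it above 98.5% and 99.3% of the peaks of those lists. BRD1-GFP gave 8.47 and 8.44, BRD2-GFP 7.01 and 5.76, and BRD13-GFP 9.60 and 8.40. In these 8 lists SVP ranked above 89.3% to 99.3% of peaks. MAF2 followed for BRM-GFP, at 4.45 and 3.88, then FLC at 3.73 and 3.73 and MAF3 at 3.63 and 3.42. Replicates of MAF2, FLC and MAF3 did not overlap, so the order of these neighbours held in both lists, but the gaps between them were no larger than the difference between the replicates of MAF2. FLM, at 2.45 and 2.71, and MAF5, at 2.45 and 2.14, were the lowest and overlapped each other. Folds of different proteins are on different scales and were not compared.

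FLM, MAF2 and MAF3 had a start summit in all 18 lists outside BRM-GFP in brd1/2/13, 3 of 7 genes, against 19.4% of all genes. Start summits of BRM and the BRD proteins lay at the 5′ end of the transcribed region in FLC, FLM, MAF2 and MAF3, and further in at SVP. The median of the 8 summits of BRM-GFP, BRD1-GFP, BRD2-GFP and BRD13-GFP was 112 bases after the start in FLC, 216 in FLM, 152 in MAF2, 306 in MAF3 and 562 in SVP. At SVP the 6 BRD summits lay within the 5′ UTR, from 527 to 577 bases after the start, BRM-GFP replicate 1 at 653 and BRM-GFP replicate 2 at 814 in the coding part of exon 1. MAF5 differed, with 6 of 8 lists showing a summit upstream of its start, at offsets of −445 to −262 bases from it, and MAF4 had start summits in only 2 of the 8 lists, at offsets of −495 and −166 bases.

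**Figure D2:**
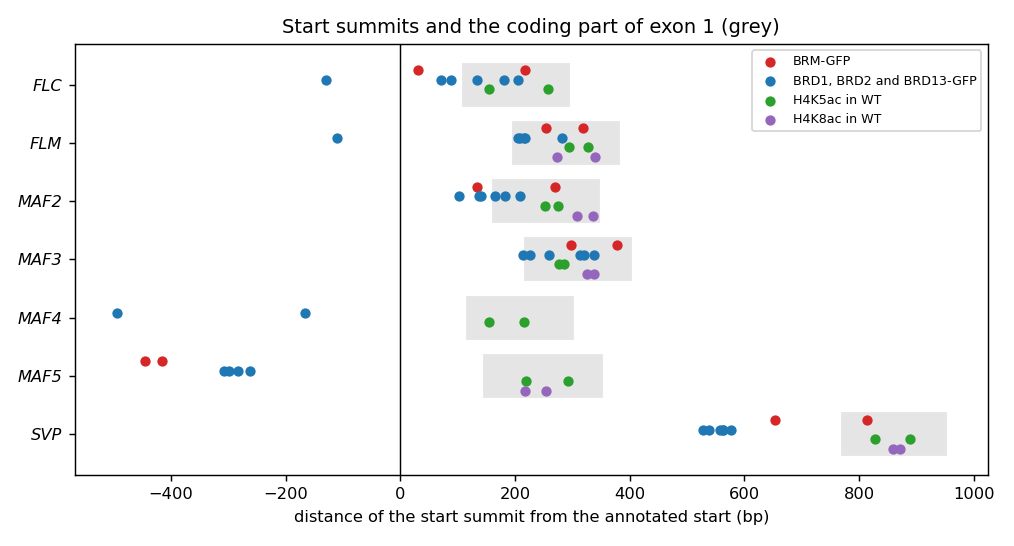
Distance of start summits from the annotated start of each gene, in bases, with 1 point for each list of BRM-GFP (red), BRD1-GFP, BRD2-GFP and BRD13-GFP (blue), H4K5ac in WT (green) and H4K8ac in WT (purple). The grey box is the coding part of exon 1. H4K5ac summits in WT fell in the box in all 7 genes, whereas BRM and BRD summits lay before it at SVP, with the exception of BRM-GFP replicate 2, and upstream of the start at MAF4 and MAF5.

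H4K5ac summits in WT lay deeper in the gene than all 8 BRM and BRD summits in SVP only, 1 of the 5 repressors with all of these summits, against 70.5% of the genes with them. For H4K8ac this held for MAF2 and SVP, 2 of 4, against 77.7%. In FLC the H4K5ac summit of replicate 1, at 154 bases, fell among the BRM and BRD summits, which ran from offset −130 to offset 218, and that of replicate 2, at 257 bases, lay past them.

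FLC had a pair of peaks, one at each end of the gene, and differed from the other repressors in how many lists held the end peak. A summit within 500 bases of the annotated end was present in all 18 lists outside BRM-GFP in brd1/2/13, a pattern that only 1.52% of genes showed and none of the other 6 repressors. For BRM-GFP the summit at the end had fold 3.73 in both replicates, above the start summit with 3.18 and 2.76. BRD1-GFP gave 3.66 and 4.2 at the end and 2.53 and 2.31 at the start, BRD2-GFP 3.55 and 2.97 against 2.31 and 2.34, and BRD13-GFP 3.49 and 3.02 against 2.77 and 2.43. The end was thus the higher of the 2 places in each of these 8 lists. BRM-GFP had a start and an end summit in both replicates at 7.44% of genes of 3 kb or more, and at FLC alone among the 7 repressors. The end summits lay at offsets of −187 to −19 bases from the annotated end in 9 of the 10 lists of BRM-GFP and the BRD proteins, BRD2-dBromo-GFP included, in the 3′ UTR, and 45 bases past it in BRD2-dBromo-GFP replicate 2. The start of AT5G01675, at position 3173371, lies 11 bases past this end, so the same peak also marks the start of the antisense gene. Other repressors had end summits in part of these 10 lists. They were in 6 lists at MAF3, 5 at MAF4, 5 at MAF5 and 3 at MAF2, none of them BRM-GFP lists. At MAF5 both BRD2-GFP replicates had a start and an end summit.

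**Figure D3:**
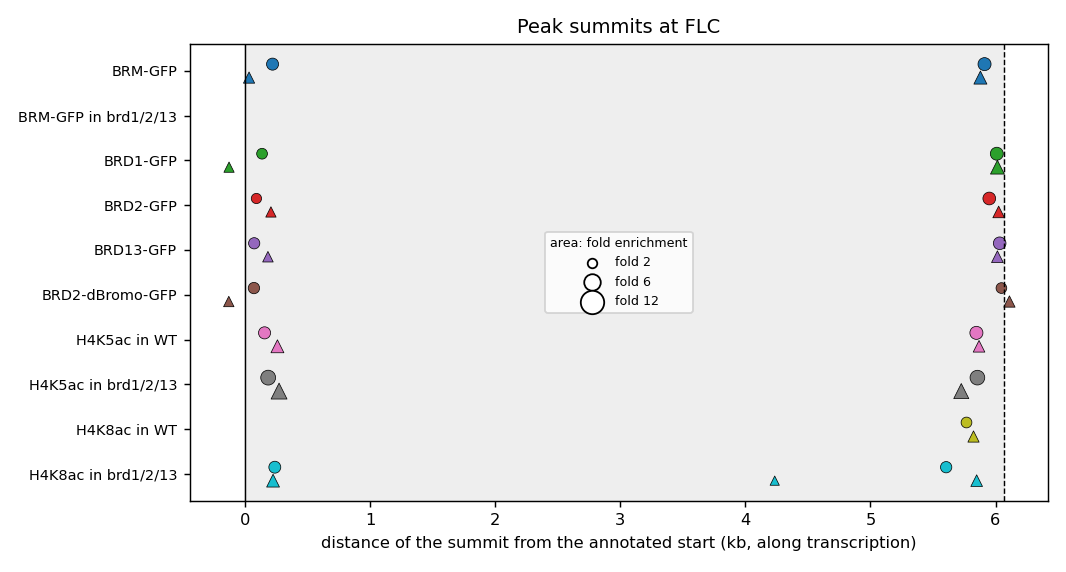
Summits of all peaks in the FLC window by distance from the annotated start in kb (horizontal axis) and by group (vertical axis), with circles for replicate 1, triangles for replicate 2 and the area in proportion to fold enrichment. The grey band spans the gene and the dashed line is its end. Summits gather at both ends of the gene, BRM-GFP in brd1/2/13 has none, and H4K8ac has start summits in brd1/2/13 only.

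Bases upstream of the FLC start are shown because the start summits of BRD1-GFP replicate 2 and BRD2-dBromo-GFP replicate 2 lay there, at offsets of −130 and −132 bases. Capitals mark the G-box CACGTG, the only 1 of the 6 motifs searched that was present.
FLC upstream of the start, chr5:3179449-3179648, minus strand: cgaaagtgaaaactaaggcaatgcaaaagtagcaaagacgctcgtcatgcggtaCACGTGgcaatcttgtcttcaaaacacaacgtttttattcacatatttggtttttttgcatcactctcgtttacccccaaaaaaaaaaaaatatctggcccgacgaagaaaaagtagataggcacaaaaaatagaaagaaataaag
Each motif was searched on both strands. Beside the G-box, the search covered the RY motif, read as TGCATG. It also covered the telo box, read as AACCCTA, and GAGAGA repeats. The remaining ones were CTCTGTT, a motif of the demethylase REF6, and the CArG box, the type of site that MADS-box proteins bind. A G-box occurs in 7.68% of promoter windows of protein-coding genes, each 300 bases long. Among the 300-base windows centred on summits, GAGAGA repeats, counted with overlaps, occurred 13 times in the MAF2 window, 8 times in that of SVP, 6 times at the FLC end and once at the FLC start, and 47.8% of all BRM-GFP summit windows held at least 1. The SVP window also held a telo box, found in 12.8% of summit windows. RY, REF6 and CArG matches were absent from all 15 windows of the repressors that were searched.

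In brd1/2/13, BRM-GFP peaks were missing from 5 of the 6 repressors that had them. FLC, FLM, MAF2, MAF3 and MAF5 had no peak in either mutant list, and SVP kept one in both. Among all genes with BRM-GFP in both replicates, 47.2% had no peak in either mutant list. By start summits the same 5 of 6 repressors lost theirs, against 52.1% of genes. The folds of the 5 genes in BRM-GFP had been 2.14 to 4.45. Among the 6361 genes with a peak in all 4 lists, list medians of the highest fold differed by −1.36 log2 units between the groups. Moved by this difference, the 10 folds of the 5 genes become 0.834 to 1.73. Only 1 of them, MAF2 in replicate 1, is then above the weakest peaks of the mutant lists at 1.64 and 1.66. That shift comes from genes that kept a peak in the mutant lists. Medians over all peaks lay closer together, with 3.452 and 3.216 for BRM-GFP against 2.155 and 2.218 for the mutant lists. A move by this smaller gap was not tested. Whether the loss at these genes goes beyond the lower folds across the mutant lists thus stayed undecided. No gene of the 7 had a peak in all 20 lists, against 17.8% of all genes. With the window reaching 2 kb upstream, FLM also had a peak in both mutant lists.

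SVP was the repressor that could be compared. Its BRM-GFP summit held 121 reads over a background of 10.01 in replicate 1, a fold of 11.1 with an exact Poisson 95% interval of 9.21 to 13.2, which covers counting error only. In BRM-GFP in brd1/2/13 it held 83 reads over 37.0 and 81 reads over 36.4, folds of 2.21 (1.77 to 2.74) and 2.19 (1.75 to 2.72). Both mutant values were far below both BRM-GFP values. Folds were lower at other genes as well, with a shift of −1.36 on the log2 scale in the list medians over the genes tested. After each list was centred on its own median, SVP was still lower in brd1/2/13 (log2 difference −1.06, SE 0.125, limma, Benjamini-Hochberg adjusted p = 0.000254). Of the 6361 genes tested, 14.6% were called lower, 19.0% higher and 33.6% in either direction. Higher and lower are here relative to the list medians. Without centring, 3 genes were called higher and 6329 lower. After centring, SVP lay at the 99.1st percentile of the size of the change. Over 13 alternatives it was called each time, with adjusted p from 2.27e-09 to 0.019 in limma, and without centring the difference was −2.42. The lists differ in background coverage, and its part in this difference was not tested.

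SVP had further BRM and BRD signal about 1 kb upstream. A separate summit lay at offsets of −1041 to −995 bases from the start in 7 lists, both replicates of BRM-GFP and BRD2-dBromo-GFP and replicate 2 of BRD1-GFP, BRD2-GFP and BRD13-GFP. In replicate 1 of these 3 proteins, 1 broad peak of 3835 to 3961 bases spanned this place and the start. Folds of the upstream summit were 3.91 and 3.83 in BRM-GFP, 3.37 in BRD1-GFP, 3.49 in BRD2-GFP, 5.98 in BRD13-GFP, and 3.07 and 3.77 in BRD2-dBromo-GFP. BRM-GFP in brd1/2/13 and the acetylation lists had no peak there that reached the SVP window. Peaks lying wholly further upstream were not described. The peak with the upstream summit is also within reach of AT2G22530, the gene upstream. The sequence of this place is given because it lies outside any annotated gene. None of the 6 motifs was found in it, so it holds no capitals.
SVP upstream region, chr2:9578482-9578781, plus strand: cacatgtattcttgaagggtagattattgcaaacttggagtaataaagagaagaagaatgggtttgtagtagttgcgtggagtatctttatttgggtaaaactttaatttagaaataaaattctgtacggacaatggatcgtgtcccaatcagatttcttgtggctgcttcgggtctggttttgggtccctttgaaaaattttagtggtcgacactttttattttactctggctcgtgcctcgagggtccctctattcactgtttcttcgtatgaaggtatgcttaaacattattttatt

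**Figure D4:**
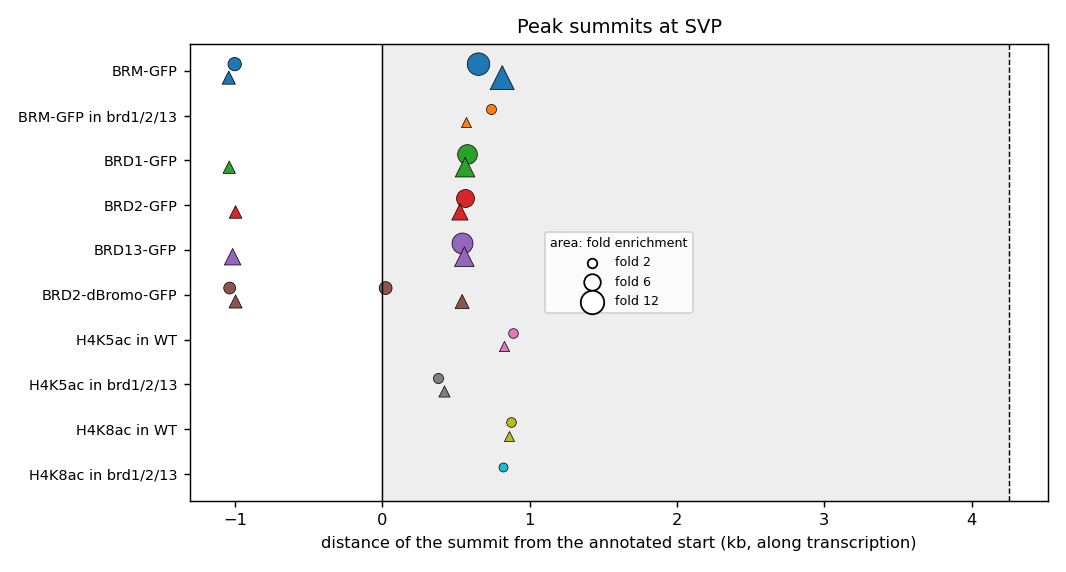
Summits of all peaks in the SVP window by distance from the annotated start in kb (horizontal axis) and by group (vertical axis), with circles for replicate 1, triangles for replicate 2 and the area in proportion to fold enrichment. The grey band spans the gene and the dashed line is its end. BRM-GFP reached 11.1 and 12.6 in the first kb of the gene and 2.21 and 2.19 in brd1/2/13, and 7 lists had a further summit about 1 kb upstream.

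BRD2-GFP and BRD2-dBromo-GFP were set side by side to ask where BRD2 with an altered bromodomain occupies the repressors. BRD2-dBromo-GFP had a peak in both replicates at all 7 (61.6% of all genes), and none of the 7 lost its peak, as 2.73% of genes did. At SVP it gave 3.62 and 4.29, where BRD2-GFP had given 7.01 and 5.76, and the groups did not overlap. Start folds were lower in both BRD2-dBromo-GFP lists at SVP only, 1 of 5 repressors, against 45.9% of genes. The log2 difference after centring was −0.52 (SE 0.15) and missed the threshold (limma, adjusted p = 0.0784), in a comparison that called 7.36% of 18495 genes, 3.56% higher and 3.81% lower. Over 13 alternatives the log2 difference was between −0.69 and −0.36. It passed without centring (−0.69, limma, adjusted p = 0.0178), where 18.4% of genes were called and 16.2% were called lower. It also passed with start summits only (−0.57, limma, adjusted p = 0.00207). That setting was chosen after the data were seen and called 19% of genes. After quantile normalization it did not pass (−0.42, limma, adjusted p = 0.153). Without BRD2-dBromo-GFP replicate 2 the difference was −0.67. The summit of BRD2-dBromo-GFP replicate 1 lay 23 bases after the SVP start and that of replicate 2 at 542, near those of BRD2-GFP at 563 and 527. Both BRD2-dBromo-GFP summits lay further upstream than both BRD2-GFP summits at FLC and MAF2, 2 of 5 repressors, against 28.5% of genes.

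At the other 6 repressors no difference passed, and none had an unadjusted p under 0.05, which 28.8% of all genes tested had, with log2 differences of −0.03 at FLC, 0.04 at FLM, 0.07 at MAF2, 0.08 at MAF3, 0.23 at MAF4 and 0.13 at MAF5 (adjusted p from 0.230 to 0.948 in limma). At the FLC start alone BRD2-dBromo-GFP gave 2.83 and 2.38 and BRD2-GFP 2.31 and 2.34, while at the FLC end it gave 2.51 and 2.81 against 3.55 and 2.97. The start was thus higher and the end lower in both BRD2-dBromo-GFP lists. Start folds were higher in this way at 14.3% of genes with start summits in all 4 lists, and the log2 difference at the start missed the threshold (0.28, limma, adjusted p = 0.138). End folds were lower in both BRD2-dBromo-GFP lists at FLC, 1 of the 2 repressors with end summits in all 4 lists, against 37.0% of genes, and higher in both at neither, against 20.8%. The difference at the end was not tested. The fit took the highest peak of each list, and these lay at different places in several genes. For MAF4 they were the peak towards MAF5 in both BRD2-GFP lists and the upstream peak in both BRD2-dBromo-GFP lists. For FLC they were the start in BRD2-dBromo-GFP replicate 1 and the end in the other 3 lists. For FLM, BRD2-GFP replicate 1 and BRD2-dBromo-GFP replicate 2 took the peak of AT1G77060, of fold 4.6 and 3.86. With start summits only, FLM had 2.18 and 2.54 in BRD2-GFP and 2.51 and 2.1 in BRD2-dBromo-GFP, and the log2 difference was 0.08 (limma, adjusted p = 0.708). At MAF5 the start summit of BRD2-GFP, at offsets of −298 and −308 bases, was absent in both BRD2-dBromo-GFP lists, as at 5.16% of genes with such a summit in both BRD2-GFP replicates. The peak itself was still there, with its summit at offsets of −1031 and −1108 bases from the start of MAF5, nearer to the end of MAF4.

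H4K5ac in WT was highest at FLM, MAF2 and MAF3 and lowest at SVP, while for H4K8ac in WT MAF4 had no peak and the folds of MAF5 and SVP overlapped. In WT, H4K5ac had a peak in both replicates at all 7 genes (70.4% of all genes) and H4K8ac at 6, without MAF4 (65.5%). H4K5ac folds in WT were 6.11 and 6.44 at FLM, 6.51 and 6.22 at MAF2, and 6.43 and 6.34 at MAF3, and these 3 overlapped one another. FLC followed with 3.73 and 3.67, then MAF4 with 3.02 and 2.91, MAF5 with 2.58 and 2.88 and SVP with 2.02 and 2.29. FLC lay above MAF4, MAF4 above MAF5 and MAF5 above SVP without overlap. SVP, with the highest BRM-GFP fold of the 7, thus had the lowest H4K5ac fold. H4K8ac summits lay deeper in the gene than H4K5ac summits in both WT lists at MAF2 and MAF3, 2 of 5 genes, against 38.4% of genes. H4K8ac in WT was 3.69 and 3.45 at FLM, 3.44 and 3.58 at MAF2, 3.75 and 4.03 at MAF3, 2.53 and 2.76 at FLC, 2.14 and 2.33 at MAF5 and 2.04 and 2.20 at SVP.

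H4K5ac had a start and an end summit in both WT replicates at FLC, MAF4 and MAF5, 3 of 7 genes, against 13.6% of genes of 3 kb or more. At FLC the WT end summits, with folds of 3.73 and 2.96, were near the level of the start summits, 3.21 and 3.67. At MAF4 the end gave 1.71 and 1.91 and at MAF5 2.27 and 1.68, below the start of each gene. H4K8ac in WT had end summits in both replicates at FLC only, with 2.53 and 2.76, and in replicate 1 at MAF5, with 1.64. FLC had no H4K8ac summit at its start in WT.

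In brd1/2/13 both marks again had a peak in both replicates at most repressors, H4K5ac at all 7 (71.9% of all genes) and H4K8ac at 6, here without SVP (65.5%). No repressor lost its H4K5ac or H4K8ac peak in both lists, as 0.466% and 1.1% of genes did. FLC was the repressor whose H4K5ac folds differed most between WT and brd1/2/13. H4K5ac at its start was 3.21 and 3.67 in WT and 4.82 and 5.57 in brd1/2/13, which in replicate 1 came from 82 and 142 reads. At its end it was 3.73 and 2.96 in WT and 4.72 and 4.98 in brd1/2/13. Both mutant lists were above both WT lists at each end of the gene. That was so at both ends for 17.6% of the genes with a start and an end summit in all 4 lists, before centring. By the highest peak in the window, which was the end in WT replicate 1 and the start in the other 3 lists, the log2 difference after centring was 0.42 (SE 0.117) and missed the threshold (limma, adjusted p = 0.182), in a comparison that called 0.244% of 21747 genes (0.115% higher and 0.129% lower), and FLC lay at the 96.7th percentile of the size of the change. With start summits only it was 0.53 (SE 0.125, limma, adjusted p = 0.0468), a setting chosen after the data were seen. Over 14 alternatives the adjusted p of limma ran from 0.0468 to 0.431, and the log2 difference was between 0.31 and 0.53.

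H4K8ac at the FLC start was seen in brd1/2/13 only. Neither WT list had a peak there, while brd1/2/13 had 3.11 (Poisson 95% interval 2.51 to 3.81) and 3.61 (2.94 to 4.37). The weakest peaks of the WT lists were at folds of 1.58 and 1.56, so a WT signal at the FLC start would be below about this size. At the end, WT had 2.53 and 2.76 and brd1/2/13 2.81 and 2.98, above WT without overlap, as at 22.9% of genes with end summits in all 4 lists. Covered length of the FLC window, the bases under H4K8ac peaks, was 553 ± 63.6 in WT and 1297 ± 75.0 in brd1/2/13 (SD, n = 2). With 2 lists against 2 the smallest two-sided p of an exact permutation test is 0.333, and it was reached. Replicate 2 of brd1/2/13 had a further summit of fold 1.87 in coding exon 4. The fit of the highest peak set the end of FLC in WT against its start in brd1/2/13, with a log2 difference of 0.33 (SE 0.132, limma, adjusted p = 0.369), in a comparison that called 0.0916% of 19643 genes, 0.0204% higher and 0.0713% lower.

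MAF4 behaved like FLC in this respect. It had no H4K8ac peak in WT and start peaks of 2.20 and 2.02 in brd1/2/13, at 204 and 178 bases after the start, and such a gain of a peak was seen at 2.83% of genes without one in WT. Genes without an H4K8ac start summit in either WT list had one in both brd1/2/13 lists in 2.49% of cases, and of the repressors without one in WT, FLC and MAF4, both did. They were above the weakest peaks of the WT lists. H4K5ac at MAF4 was 3.02 and 2.91 in WT and 2.63 and 3.14 in brd1/2/13, and these overlapped.

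**Figure D5:**
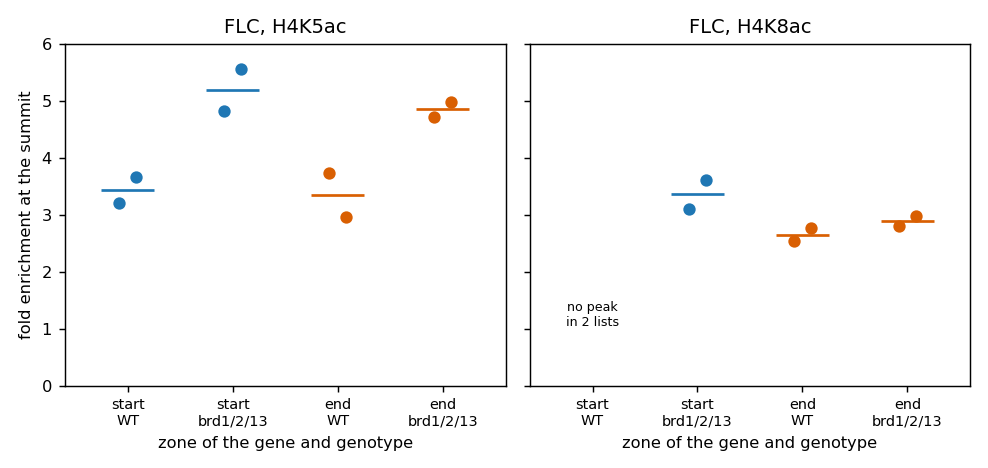
Fold enrichment at the FLC start and end summits (vertical axis) for H4K5ac (left) and H4K8ac (right) in WT and brd1/2/13 (horizontal axis), with 1 point for each replicate and a line at the mean of 2. For H4K5ac both brd1/2/13 points lie above both WT points at each place, and for H4K8ac the start has no WT peak and 3.11 and 3.61 in brd1/2/13.

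No acetylation difference of the other repressors passed limma. At an unadjusted p under 0.05 there was FLC for H4K5ac, 1 of 7 genes tested, against 13.4% of all genes tested, and FLC and MAF2 for H4K8ac, 2 of 5, against 11.0%. The H4K8ac value of FLC compares different places of the gene, as given above. For H4K5ac the log2 differences were −0.09 at FLM, −0.07 at MAF2, 0.01 at MAF3, −0.12 at MAF4, 0.10 at MAF5 and 0.13 at SVP, with adjusted p from 0.702 to 0.983. Before centring, both brd1/2/13 lists were above both WT lists at the start of MAF3, where 34.8% of genes showed this, and at the end of MAF5, where 35.3% did. The end of MAF5 had 2.80 and 2.64 in brd1/2/13 and 2.27 and 1.68 in WT. For H4K8ac MAF2 went from 3.44 and 3.58 in WT to 4.28 and 4.63 in brd1/2/13 without overlap (log2 difference 0.33, SE 0.126, limma, adjusted p = 0.348). MAF3, its neighbour, had 3.75 and 4.03 in WT and 3.24 and 3.57 in brd1/2/13 (log2 difference −0.20, SE 0.128, limma, adjusted p = 0.604). Start folds of H4K8ac were above both WT lists in both brd1/2/13 lists at FLM and MAF2, 2 of 4 genes, against 22.4% of genes. FLM gave 0.18 and MAF5 0.03, with adjusted p of 0.634 and 0.961 in limma. SVP had an H4K8ac peak of 1.76 in replicate 1 of brd1/2/13 and none in replicate 2, so it was not in the fit.

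At SVP the H4K5ac summit lay at different places of a weak peak in WT and in brd1/2/13. It lay 889 and 827 bases after the start in WT, in the coding part of exon 1, and 380 and 416 bases after it in brd1/2/13, in the 5′ UTR. SVP was the only 1 of the 7 with both brd1/2/13 summits further upstream than both WT summits, against 19.9% of genes. In 0.241% of 16163 genes with H4K5ac start summits in all 4 lists, both brd1/2/13 summits were at least 400 bases further upstream than both WT summits, a distance chosen after the values of SVP were seen. The peaks themselves covered nearly the same bases, 677 in each WT list and 736 and 683 in brd1/2/13, and had low folds of 2.02 to 2.71. A summit within so low a peak rests on few reads, here 50 and 63 reads in WT and 66 and 76 reads in brd1/2/13. The share of 0.241% was taken over peaks of all folds, not over peaks as low as these. Both H4K8ac summits in WT, at 871 and 860, and the 1 in brd1/2/13, at 821, were in the coding part of exon 1. None of the 4 repressors with H4K8ac start summits in all lists had both brd1/2/13 summits further upstream, against 19.4% of genes.

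Genes that act on the repressors or below them were described from 5 lists with 38 genes. Of the 5 genes of the FRIGIDA complex, which activates FLC, FRI and FES1 had BRM-GFP in both replicates and FRI kept it in brd1/2/13, with folds of 2.91 and 3.01 against 1.81 and 2.01. Of 10 chromatin and transcription activators of FLC, 5 had BRM-GFP (ELF7, SDG8, ATX1, PIE1 and ARP6) and none had it in both lists of BRM-GFP in brd1/2/13. Of 11 genes of Polycomb and vernalization, 8 had BRM-GFP. VRN1, a DNA-binding protein that keeps FLC silent after cold, had 8.09 and 7.30. It was the only 1 of them with a peak in both mutant lists, at 2.29 and 2.83. VRN2 and VRN5 had a peak in 1 mutant list each. VAL2 had the highest BRM-GFP folds of these genes, 18.9 and 19.7, and no peak in either mutant list. Of 8 genes of the autonomous pathway, which lowers FLC, 5 had BRM-GFP (FCA, FPA, FLD, LD and REF6) and none in both mutant lists. FLD, LD and REF6 had a peak in 1 mutant list each. The shares over all genes were 54.6% with BRM-GFP and 20.3% with BRM-GFP in brd1/2/13. H4K5ac was present in both WT replicates at every gene of these 4 lists but VIN3, which the cold induces.

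Among 4 targets of the repressors, FT, the florigen gene, had no peak in any of the 20 lists. SOC1, a MADS-box activator of flowering, had BRM-GFP folds of 3.36 and 5.67, and BRM-GFP in brd1/2/13 gave a peak of 1.95 in 1 list. Its BRD13-GFP folds were 7.61 and 8.64, where SVP had 9.60 and 8.40. TSF, a relative of FT, had BRD1-GFP folds of 6.60 and 6.66 and no BRM-GFP peak.

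The genes with a pattern most like that of FLC over the 20 lists, by the mean difference of the rank of their best peak within each list, were AT5G54780, AT3G59300, AT4G00893, AT4G00895 and OASB. They differed from FLC by 6.71 to 7.34 percentile points, where the median over all protein-coding genes was 32.6. AT4G00893 and AT4G00895 had the same value of 7.02. For SVP they were AT1G72180, AT4G16380, NGA2, AT1G58602 and AT3G26512, at 5.20 to 7.11 points, with a median of 52.1 over all genes. Lists of a group share a protein or mark and a genotype, so the 20 lists are not independent and the likeness is a description of the lists.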

How the data were processed

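ChIP-seq was done on whole seedlings, and 20 immunoprecipitated samples were used, while 10 inputs were not used here. Each group had its own input, shared by its replicates, and any part of an input in the folds was not tested. Per the submitters' processing notes, reads were aligned with Bowtie to TAIR10 and peaks called with MACS2 2.1.1 (deepTools is also named). The deposited peak lists hold, for each peak of each sample, the fold enrichment described above. They also hold the authors' −log10 p-value and q-value, and a MACS2 score. Pileup reads were solved here from the fold and the −log10 p-value. The acetylation samples carry an antibody label naming GFP, and their titles were followed instead.

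A peak belonged to a gene when it overlapped the gene or 1 kb upstream by 1 base or more. The highest log2 fold of each gene with a peak in all 4 lists of a comparison, centred on each list's median over genes, was tested with limma 3.58.1 (R 4.3.3) with Benjamini-Hochberg adjustment over all genes tested, using the 2 groups compared. Differences are therefore relative to the median of each list over the genes tested. Simulated log2 changes of 1 were recovered in 90% to 100% of genes and of 0.5 in 8% to 37%. Each simulated comparison also called 12 to 18 genes that had not been changed. Genes without a peak in 1 of the 4 lists could not be tested, and presence was counted instead. Python 3.11.15, numpy 2.4.6, pandas 2.3.3 and scipy 1.17.1 were used. Depth enters through the background coverage of each list, and intervals cover counting error only. All 7 members were described; the genes with the most similar pattern were those with the smallest mean difference in percentile over the 20 lists. Alternatives were other normalizations, pseudocounts, filters, windows, the replicate block and leaving out each replicate. Members and lists were chosen with earlier results of these data known.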

Additional observations from a re-analysis of the deposited data

How the results depend on the processing

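Differences of single repressors kept their direction wherever they were called. For BRM-GFP in brd1/2/13 against BRM-GFP, 2136 genes were called by limma, 6332 without centring, 534 after quantile normalization, 1325 from the ratio of pileup to background, and 1282 to 1900 when a replicate was left out. For BRD2-dBromo-GFP against BRD2-GFP, 1362 genes were called, 3395 without centring, 770 after quantile normalization, 2175 with start summits only, and 599 to 1655 without a replicate. For H4K5ac, 53 genes were called, 85 without centring, 88 with a pseudocount of 1, 180 with start summits only, and 77 to 100 without a replicate. For H4K8ac, 18 were called, 36 with start summits only and 82 to 155 without a replicate. Start summits only and protein-coding genes only were chosen after seeing the data. The cause of these changes was not tested. With 2 kb upstream, 2 repressors (FLM and SVP) in place of 1 had a peak of BRM-GFP in brd1/2/13. With the gene body only, BRM-GFP had a peak in both replicates at 5 repressors, BRD13-GFP at 5 and BRD2-dBromo-GFP at 6. With the summit required in the window, BRD1-GFP had one at 6, BRD13-GFP at 5 and BRD2-dBromo-GFP at 6. The other groups kept their counts in these settings. Replicate numbers did not pair the samples (correlation of deviations from −0.015 to 0.028), and with the replicate block 32 genes were called for H4K5ac and 103 for H4K8ac. The weakest peaks of each list, at folds of 1.54 to 2.0, limit what could be seen.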
